A study of Mus musculus with 2 samples.

Results

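The genes described here encode proteins of the Z-disc, the M-band and the thin filament of the sarcomere, the contractile unit of striated muscle, together with their closest partners. They were chosen by gene symbol: 39 genes were listed, 33 had a probe on the array, and 30 had a probe detected on at least 1 array, out of 8815 detected and 16593 named genes in all. The genes had 53 probes, 47 of them detected. Neb, Lmod3, Mybph, Flnc, Xirp2 and Smpx had no probe named for them. Nebl, Fhl3 and Nexn had probes that were detected on neither array, with signals between 143 and 170.

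RNA had been profiled with Illumina bead arrays. It came from the tibialis anterior, a muscle at the front of the lower leg, of C57/BL6 mice aged 10 days (P10). The DHT array held muscle taken 24 h after an injection under the skin of DHT, read here as the androgen dihydrotestosterone, and the vehicle array muscle taken 24 h after vehicle alone. Each group had 1 array, 2 in all, and the labels give neither the number or sex of the animals behind an array nor any transgene. With 1 array per group there is no replicate error, so no test or p-value is given and every difference describes these 2 arrays. In whole muscle, fewer cells of a type cannot be told apart from less RNA per cell.

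In the sarcomere, thin filaments of actin are anchored at the Z-disc by alpha-actinin, thick filaments of myosin are held in register at the M-band by myomesin, and titin spans from the Z-disc to the M-band. Z-disc proteins with PDZ and LIM domains link alpha-actinin to signalling enzymes. The muscle ankyrin repeat proteins, which bind titin in the I-band and also enter the nucleus, are known in muscle for induction by stretch, as are several of their partners.

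Signals are the deposited brightness of a probe, in arbitrary units, and a probe counted as detected where its detection p was under 0.01. Detected probes made up 45.7% of the DHT array and 46.5% of the vehicle array. The DHT array was the dimmer, with a median signal of 168 against 177 on the vehicle array and a total of 2.65e+07 against 2.99e+07. Each log2 difference is the DHT value minus the vehicle value, after background correction and quantile normalization between the arrays, and folds are brighter over dimmer. Because the arrays were aligned in this way, near-equal signals can give a positive difference, of a size that varied with brightness. It was 0.33 for a Mybpc1 probe at 611 on the DHT array and 610 on the vehicle array. For Acta1, at 65863 and 66504, it was 0.01. Signals above 40000 lie near the top of the scale, which reached 69896 on the DHT array and 70111 on the vehicle array, and were counted as saturated. The defining transcripts of skeletal muscle fibres were detected at high signals, with 7 of 9 fibre markers above 40000 on both arrays. The others, Myh4 and Myh1, had differences of 0.41 and -0.47. Markers of other cell types differed between the arrays. All 7 fibroblast markers were detected, with differences from -1.84 to 0.00 and a median of -1.14, and the 4 detected of 5 adipocyte markers had differences from 1.08 to 1.42 while Fabp4 was undetected. Their part in the values of the sarcomere genes was not tested.

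**Figure D1:**
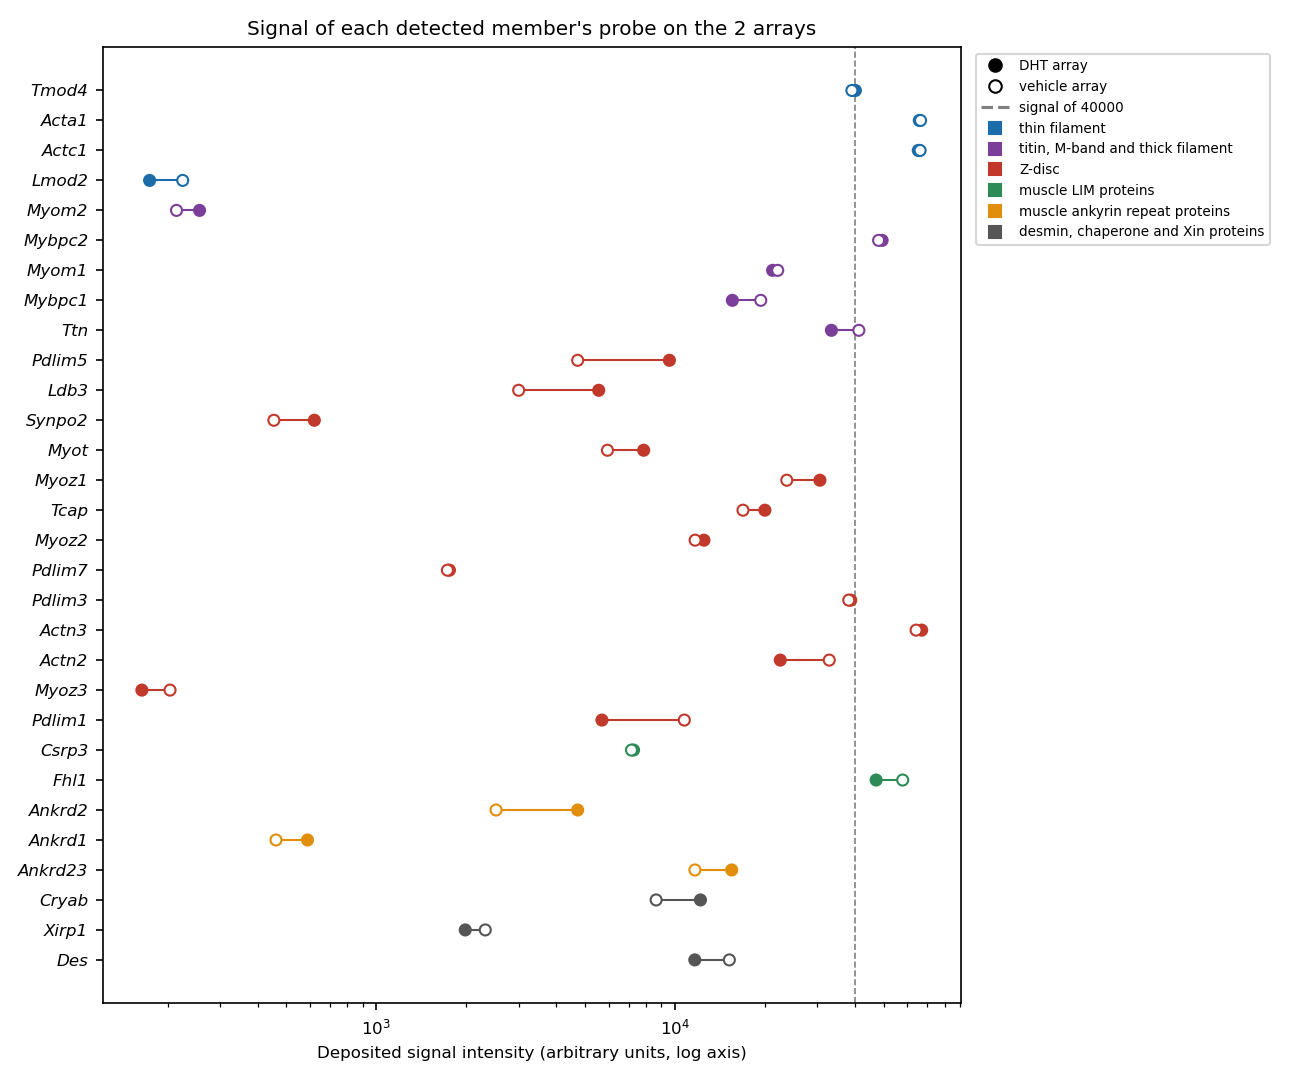
Deposited signal of the probe used for each of the 30 detected genes, on a log axis, with the DHT array as filled and the vehicle array as open circles and colours for the position in the sarcomere. Pdlim5, Ldb3 and Ankrd2 were brighter on the DHT array and Pdlim1 on the vehicle array, while the probes of Acta1, Actc1, Actn3, Mybpc2 and Fhl1 lay beyond the dashed line at 40000 on both arrays.

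The 30 detected genes leaned towards higher values on the DHT array, with 22 positive and 8 negative differences, against 4354 and 4452 among all detected genes. By position, the median difference was 0.80 for 3 ankyrin repeat genes, 0.32 for 13 Z-disc genes, 0.13 for 5 genes of titin, the M-band and the thick filament, 0.03 for desmin, Cryab and Xirp1, 0.01 for 4 thin filament genes and 0.01 for 2 LIM genes. Of the 30, 9 were at least 1.5-fold higher (Pdlim5, Ankrd2, Ldb3, Myom2, Synpo2, Ankrd1, Cryab, Myot and Ankrd23), where 13.4% of all 8815 detected genes were. By the fitted values 3 were at least 1.5-fold lower (Lmod2, Myoz3 and Pdlim1), where 15.8% were. At 2-fold, 3 were higher and 0 lower, against 4.61% and 6.28% of all genes. The median difference of the 30 genes was 0.19, and that of all genes -0.01. Lmod2 and Myoz3 were detected on the vehicle array alone, and their bounds, given below, do not reach 1.5-fold, so Pdlim1 was the 1 gene measured as lower by that much among the 28 detected on both arrays.

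Many of these genes have bright probes, and bright genes differed less between the arrays. Among the 918 genes with log2 values of at least 12 on both arrays, a level chosen after the data were seen, 7.73% were at least 1.5-fold higher and 7.73% lower. Of the 21 sarcomere genes at that level, 4 were higher (Pdlim5, Cryab, Myot and Ankrd23) and 1 lower (Pdlim1), with a median of 0.15. Pdlim5 stood at position 7 from the top among the 918.

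**Figure D2:**
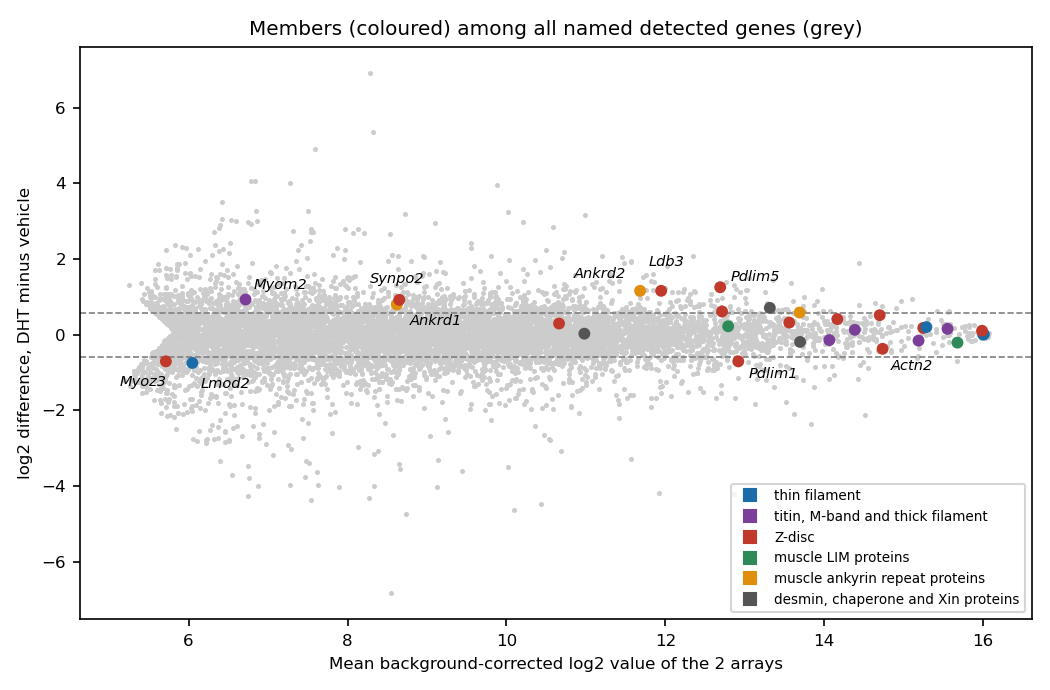
The log2 difference, DHT minus vehicle, of all 8815 detected genes (grey) and of the 30 sarcomere genes (coloured by position) against the mean log2 value of both arrays, with dashed lines at 1.5-fold. The cloud narrows to the right. Pdlim5, Ldb3 and Ankrd2 lie near its upper edge, and Pdlim1 lies below the lower dashed line but inside the cloud. Myom2, Synpo2, Ankrd1, Lmod2 and Myoz3 lie in its wider left part.

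The Z-disc genes held the highest difference of the whole set. Of 15 listed, 13 were detected, with a median of 0.32, and 4 were at least 1.5-fold higher, where 13.4% of all detected genes were. Pdlim1 was lower by that much, and Myoz3 by its fitted value only, where 15.8% of all detected genes were. Pdlim5, the Enigma homolog, which joins alpha-actinin to protein kinases, had a signal of 9587 on the DHT array and 4726 on the vehicle array. That is 2.39-fold higher, a log2 difference of 1.26. Another 2 Pdlim5 probes gave differences of 1.22 and 1.20. The dimmest, which the platform assigns to another transcript of the gene, had signals of 193 and 201, just above the lowest detected signals of 180 and 190, and a difference of 0.19.

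Ldb3, also called Cypher or ZASP, is an alpha-actinin partner of the same PDZ and LIM family whose loss disrupts Z-discs in mice. It had a signal of 5558 on the DHT array and 2997 on the vehicle array, 2.23-fold higher (1.16). Its other probe, again assigned to a different transcript, was dim, at 272 on the DHT array and 267 on the vehicle array, with a difference of 0.40. For both genes the brighter probes thus gave the larger difference, and the dim probes were close to background.

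The PDZ and LIM family did not go one way. Pdlim1, known as CLP36, had 5697 on the DHT array against 10756 on the vehicle array, 1.63-fold lower (-0.70). Pdlim3, the actinin-associated LIM protein ALP, had 38819 and 38224 with a difference of 0.18, and Pdlim7, known as Enigma, 1757 and 1730 with 0.30, both under 1.5-fold. Outside the list, Pdlim2 (443 on the DHT array, 852 on the vehicle array) was 1.83-fold lower, or 1.61-fold without background correction. Pdlim4 (1857 and 3044) differed by -0.50. Pdlim1 is also made in smooth muscle and vessels, and most markers of smooth muscle and pericytes were lower beside it. Of 8 such markers 7 were detected, with differences from -1.25 to 0.70 and a median of -1.14. At 1.5-fold, 4 were lower and 1, Tagln, higher, against 15.8% and 13.4% of all genes. The smooth muscle actin Acta2 was among the lower (13782 on the DHT array, 35025 on the vehicle array). Of the defining contractile markers Cnn1 was undetected and Myh11 was at 456 and 457, a difference of 0.33. The 5 detected endothelial markers had a median of -1.25. Their part in the lower Pdlim1 signal was not tested.

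The alpha-actinins, which cross-link actin at the Z-disc, differed in opposite directions. Actn3, the isoform of fast fibres, had 3 probes of very different brightness. The dimmest had 13193 on the DHT array and 7724 on the vehicle array, a difference of 0.97. The middle probe had 52608 and 38009 (0.55), and the brightest 67085 and 64270 (0.10). The difference was smaller the closer the probe came to the top of the scale. The brightest probe supplied the value counted above, and with probes above 40000 left out Actn3 was the 10th gene at least 1.5-fold higher. Actn2, the isoform of all fibres, had a single probe below 40000, with 22542 on the DHT array and 32891 on the vehicle array, 1.29-fold lower (-0.37). Its difference stayed negative in all 12 alternative settings, and that of Actn3 positive.

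Other Z-disc genes were mostly higher. Myot, encoding the actin-bundling myotilin, had 7860 on the DHT array and 5945 on the vehicle array, 1.53-fold higher (0.61). Synpo2, encoding myopodin, an actin-bundling protein also made in smooth muscle, had 620 and 454, 1.89-fold higher (0.92), and 1.62-fold when uncorrected. Tcap, the telethonin that caps titin, had 20022 and 16907 (0.41). The myozenins, or calsarcins, bind calcineurin to alpha-actinin, and they did not share a direction. Myoz1, of fast fibres, had 30607 on the DHT array and 23701 on the vehicle array (0.52), just under 1.5-fold. Myoz2, of slow fibres and heart, had 12511 and 11689 (0.32). Myoz3 was not detected on the DHT array (not well above background), with 164 against 204 on the vehicle array. The bound after background correction was at least 1.15-fold lower, and the fold without it was 1.17.

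The 3 muscle ankyrin repeat genes were all higher on the DHT array by at least 1.5-fold, where 13.4% of all detected genes were, with a median of 0.80. Ankrd2, which in adult muscle is most abundant in slow fibres and responds to stretch, had 4725 on the DHT array against 2518 on the vehicle array, 2.24-fold higher (1.16). Ankrd1, the cardiac ankyrin repeat protein, low in resting muscle and induced by injury and load, had 588 and 461, 1.74-fold higher (0.80), with its second probe at 385 and 288 (1.03). Without background correction the Ankrd1 fold was 1.51. Ankrd23, the remaining gene of the family, had 15498 and 11671 and stood at the 1.5-fold threshold itself (0.59). Without background correction its fold was 1.496, just under that threshold. Without any normalization between the arrays, the median of the 3 genes was 0.48.

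Outside the ankyrin repeat family the stretch-responsive genes were less uniform. Of the 10 listed as responsive to stretch, load or fibre damage, 7 were detected, among them the 3 ankyrin repeat genes. The median of the 7 was 0.59, the value of Ankrd23 itself. At 1.5-fold, 4 were higher, 3 of them the ankyrin repeat genes, and 0 lower, against 13.4% and 15.8% of all genes. The fourth was Cryab, encoding the chaperone alpha-B crystallin, which protects desmin and titin, with 12183 on the DHT array against 8653 on the vehicle array, 1.64-fold higher (0.71). The muscle LIM protein gene Csrp3, a Z-disc strain sensor, had 3 probes of opposite sign, the brightest at 7271 and 7155 (0.22) and the others at -0.18 and -0.08. Xirp1, encoding Xin, a marker of fibre damage and repair, had 1985 and 2317 (0.03). Fhl1, a LIM-only protein of the I-band, was saturated on both arrays, with 47217 and 57943 (-0.21) on the brighter probe and 45762 and 51007 (-0.04) on the other. Csrp3, Xirp1 and Fhl1 were thus all under 1.5-fold, and their signs depended on the probe or the scaling.

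**Figure D3:**
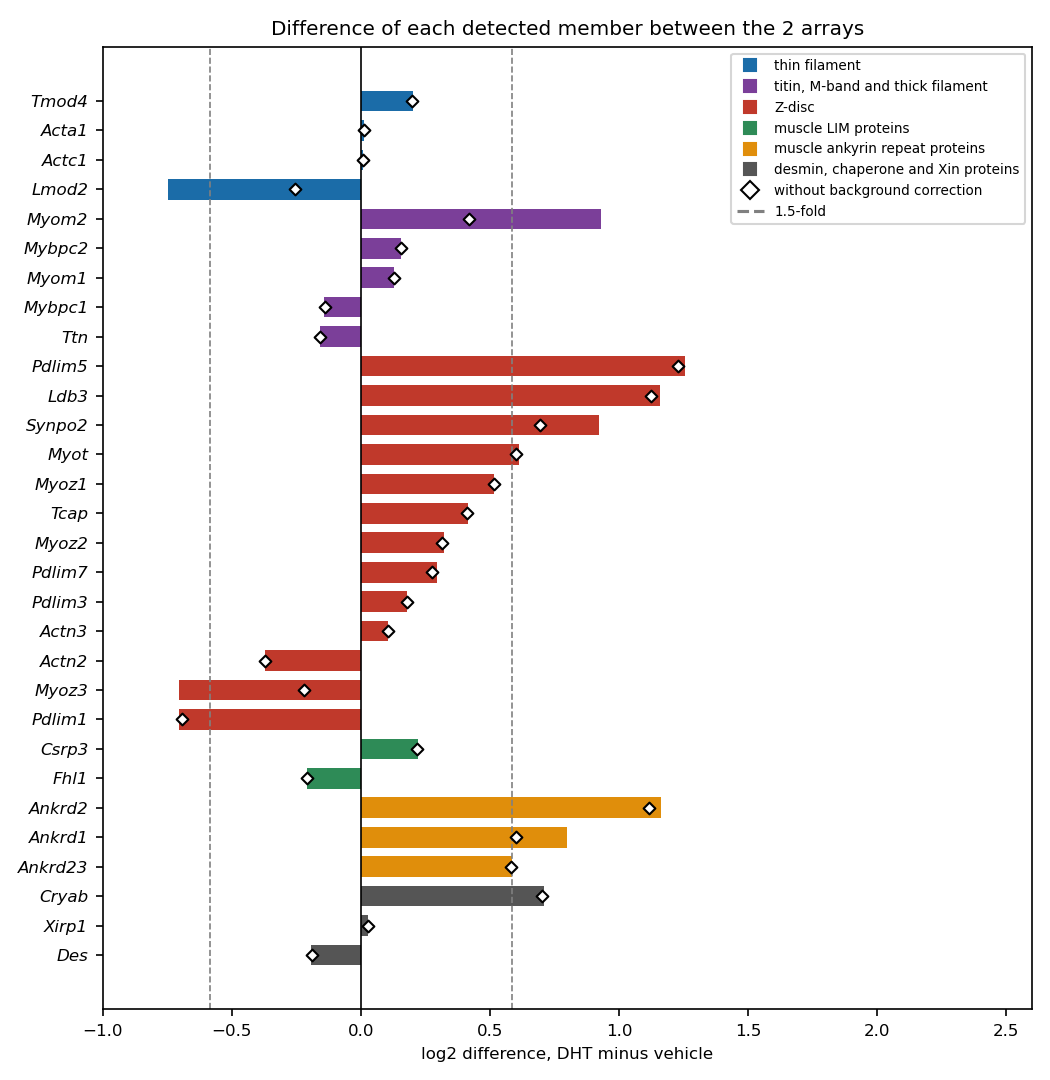
The log2 difference, DHT minus vehicle, of each of the 30 detected genes as bars, ordered by position and size, with the value without background correction as open diamonds and 1.5-fold as dashed lines. Bars and diamonds coincide for the bright genes and part for Lmod2, Myoz3, Myom2, Synpo2 and Ankrd1, which were dim.

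Of the 4 thin filament genes detected, Acta1 and Actc1 were read from probes saturated on both arrays, which can hide a difference. Acta1, the actin of the adult skeletal thin filament, had 65863 on the DHT array and 66504 on the vehicle array (0.01). Actc1, the cardiac actin that is also made in developing skeletal muscle, had 65353 and 66270 on its brighter probe (0.01), both saturated. Its other probe was below 40000, with 20926 and 21267 and a difference of 0.16. Tmod4, which caps the pointed end of the filament, had 40233 and 39160 on its brightest probe (0.20), saturated on the DHT array. Its other probes, below 40000, gave 0.39 and 0.40. Lmod2, the leiomodin that elongates filaments in heart and muscle, was likewise undetected on the DHT array, with 174 against 225. The bound after background correction was at least 1.47-fold lower, but the fold without it was 1.19, so the size rests on the correction. The median of the 4 detected genes was 0.01, or 0.16 without saturated probes, 3 genes in number. Of 5 markers of heart muscle, Nppa, Nppb, Tnni3 and Myl7 were not detected, and Myh6 had 408 on the DHT array and 842 on the vehicle array.

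Genes of titin, the M-band and myosin binding were also close between the arrays. Ttn, encoding titin, had 33441 on the DHT array and 41324 on the vehicle array (-0.16), saturated on the vehicle array. Myom1, the myomesin of all fibres, had 21247 and 22100 (0.13), and 0.28 on its other probe. Myom2, the M-band protein of fast fibres and heart, was dim, with 256 and 214, 1.91-fold higher (0.93), but 1.33-fold without background correction. Mybpc2, the fast myosin-binding protein C, was saturated on both arrays, with 49452 and 48119 (0.15). Mybpc1, the slow isoform, had 15578 on the DHT array and 19391 on the vehicle array (-0.14), with other probes at -0.06 and 0.33. Des, the desmin that ties neighbouring Z-discs together, had 11660 and 15220 (-0.19). Of these genes only Myom2 was past 1.5-fold.

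**Figure D4:**
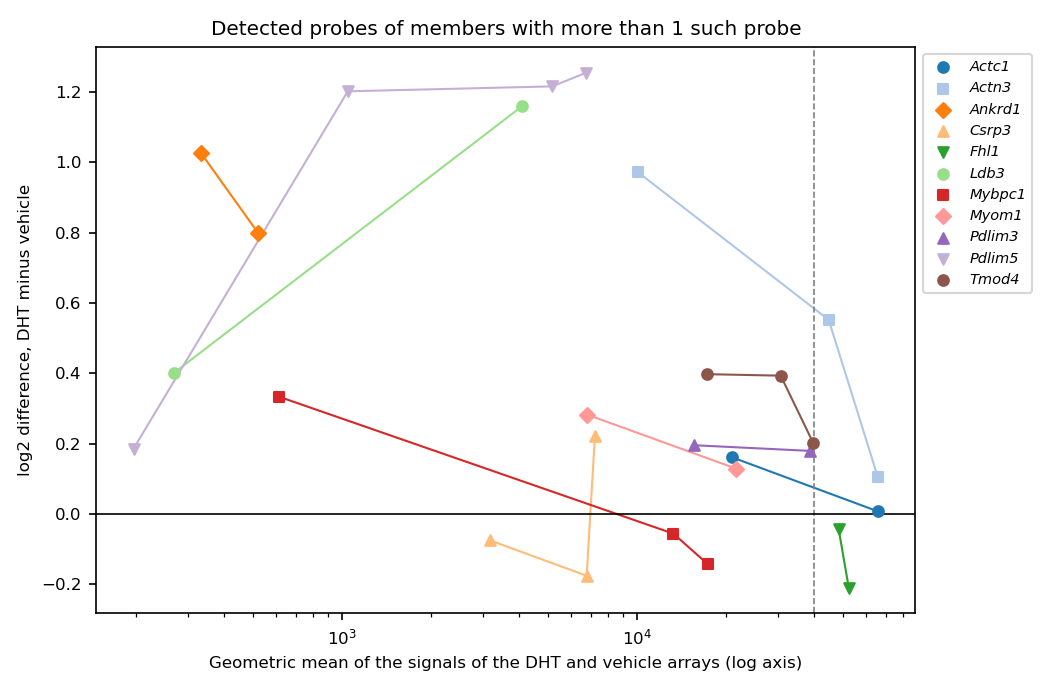
The log2 difference, DHT minus vehicle, of every detected probe of the 11 genes with more than 1 such probe, against the geometric mean of the signals of both arrays on a log axis, with probes of a gene joined. The Actn3 line falls from 0.97 to 0.10 as its probes approach and pass the dashed line at 40000, the Pdlim5 and Ldb3 lines start low at their dim probes, and the Csrp3 and Mybpc1 lines cross 0.

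Probe agreement gives a scale for reading these values, though not an error between animals. Over 2229 genes with several detected probes, the probes of a gene differed with an SD of 0.28 on the log2 scale. Among the 11 sarcomere genes with several, the range between probes was 0.02 for Pdlim3 and 1.07 for Pdlim5. Among the probes of the 30 genes, 6 were above 40000 on both arrays and 3 on 1 array. With all probes above 40000 on either array left out, 26 genes remained, with a median of 0.36. Of these 10 were higher at 1.5-fold, where 13.5% of all genes treated in the same way were, and 3 were lower by their fitted values, where 15.9% were.

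Genes listed as typical of a fibre type could not be compared as groups. The 4 fast-enriched genes (Actn3, Myoz1, Myoz3 and Mybpc2) had a median of 0.13, which rests on the saturated probes of Actn3 and Mybpc2, and Myoz3 has only a bound. The 4 slow-enriched genes (Myoz2, Csrp3, Ankrd2 and Pdlim1) had a median of 0.27 and held both Ankrd2, at 1.16, and Pdlim1, at -0.70.

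Promoter sequences are shown for the 3 genes with the largest positive differences, Pdlim5, Ankrd2 and Ldb3. Those of Pdlim1, the 1 gene detected on both arrays that was at least 1.5-fold lower, and of Actc1 are shown too. The Actc1 promoter is a textbook target of serum response factor, but its brighter probe was saturated and can hide a difference. The sequences are the 250 bases before the most upstream start in RefSeq (GRCm38.p6), 5′ to 3′, and capitals mark matches to the motifs searched. Pdlim5 is on chr3:142395697-142395946 (minus strand), Ankrd2 on chr19:42035777-42036026 (plus strand), Ldb3 on chr14:34588682-34588931 (minus strand), Pdlim1 on chr19:40271617-40271866 (minus strand) and Actc1 on chr2:114052876-114053125 (minus strand).
Pdlim5: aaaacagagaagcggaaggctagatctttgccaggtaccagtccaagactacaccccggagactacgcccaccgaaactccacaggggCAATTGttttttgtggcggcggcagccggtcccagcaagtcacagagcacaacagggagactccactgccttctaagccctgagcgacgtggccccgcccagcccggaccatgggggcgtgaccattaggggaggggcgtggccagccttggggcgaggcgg
Ankrd2: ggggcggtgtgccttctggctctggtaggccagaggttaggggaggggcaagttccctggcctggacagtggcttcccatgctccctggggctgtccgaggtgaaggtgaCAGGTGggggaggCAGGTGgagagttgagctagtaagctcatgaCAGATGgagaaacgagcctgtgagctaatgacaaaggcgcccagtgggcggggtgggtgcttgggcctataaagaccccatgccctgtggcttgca
Ldb3: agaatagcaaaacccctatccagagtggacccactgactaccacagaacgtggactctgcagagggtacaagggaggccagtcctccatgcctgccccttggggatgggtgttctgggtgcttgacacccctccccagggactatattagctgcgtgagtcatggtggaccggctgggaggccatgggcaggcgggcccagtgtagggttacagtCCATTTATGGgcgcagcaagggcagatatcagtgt
Pdlim1: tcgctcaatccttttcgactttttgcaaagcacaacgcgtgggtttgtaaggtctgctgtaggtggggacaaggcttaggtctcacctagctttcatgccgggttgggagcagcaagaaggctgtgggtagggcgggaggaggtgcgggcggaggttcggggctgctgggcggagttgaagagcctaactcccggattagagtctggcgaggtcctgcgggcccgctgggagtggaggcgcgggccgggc
Actc1: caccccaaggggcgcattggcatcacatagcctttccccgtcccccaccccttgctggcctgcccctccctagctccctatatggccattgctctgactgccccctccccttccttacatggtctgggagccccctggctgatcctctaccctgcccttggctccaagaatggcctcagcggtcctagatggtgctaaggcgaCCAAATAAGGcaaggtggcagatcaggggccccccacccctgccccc

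The motifs were the CArG box, which binds serum response factor, the MEF2 site, the E-box CANNTG of the myogenic factors and the MCAT box CATTCC of the TEAD factors, searched on both strands in 300 bases, 50 of them after the start. The RefSeq promoter table used here held such a stretch for 28 of the 39 genes. A CArG box stood in 5 of the 28 (17.9%), those of Acta1, Actc1, Fhl1, Ldb3 and Myom1, and in 1.59% of all 27025 promoters, 1 per gene. A MEF2 site stood in 4 (14.3%), against 3.29% of all promoters, an MCAT box in 8 (28.6%), against 14.7%, and an E-box in 21 (75.0%), against 72.1%. Of the 9 genes at least 1.5-fold higher, 6 had a promoter in that table, and no motif stood in all 6. An E-box stood in 4 (Ankrd1, Ankrd2, Pdlim5 and Synpo2), an MCAT box in 2 (Ankrd1 and Ankrd23), a CArG box in 1 (Ldb3) and a MEF2 site in 1 (Synpo2). That of Pdlim1 held none of the 4 motifs. The genes with a CArG box had differences from -0.21 for Fhl1 to 1.16 for Ldb3. A match describes letters and not a bound site.

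Related genes of the sarcomere outside the list were taken from lists that were written with earlier results known. Of 30 other sarcomere and Z-disc genes, 23 were detected, with a median of -0.12. By the fitted values 3 were at least 1.5-fold higher and 3 lower, against 13.4% and 15.8% of all genes. Synm, encoding synemin, a partner of desmin, had 4107 on the DHT array and 2785 on the vehicle array, 1.76-fold higher. Lmod1 and the capping protein gene Capza2 passed detection only on the DHT array. Their bounds after background correction, at least 1.45-fold and 1.35-fold higher, do not reach 1.5-fold, and their folds without it were 1.27 and 1.22. The lower genes were Pdlim2, the LIM-only Fhl2 (401 on the DHT array, 865 on the vehicle array, 2.16-fold lower), and Vim, encoding vimentin, an intermediate filament of immature and non-muscle cells (1805 and 3660, 1.76-fold lower). Without background correction the folds of these lower genes were 1.61 for Pdlim2, 1.82 for Fhl2 and 1.71 for Vim.

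Of 19 symbols listed for factors of sarcomere assembly and turnover, 14 were detected, with a median of 0.26. At 1.5-fold, 3 were higher and 0 lower, against 13.4% and 15.8% of all genes, a small count to set beside those shares. Hspb7, a small heat shock protein of the thin filament and Z-disc, had 3342 on the DHT array against 1812 on the vehicle array, 2.29-fold higher. Trim54, encoding MURF3, a ubiquitin ligase that stabilises microtubules at the Z-disc, had 8415 and 4634, 2.12-fold higher. Capn3, a calpain bound to titin, had 1464 and 1185, 1.54-fold higher. The chaperones Bag3 (0.28), Unc45b (0.25), Hspb8 (0.08) and Hspb1 (-0.05) were under 1.5-fold. Klhl40 and Klhl41 were listed also under their older symbols, Kbtbd5 and Kbtbd10, and no probe was named by any of these symbols.

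Regulators of sarcomere transcription showed no difference past 1.5-fold. Of 15 symbols listed, 10 were detected, with a median of -0.37, which without background correction was -0.21. At 1.5-fold, 0 were higher and 0 lower, against 13.4% and 15.8% of all genes, a small number of genes to set beside those shares. Mef2d, detected on the vehicle array alone, has only a bound, at least 1.12-fold lower. The list also held Hrc, a calcium store protein (-0.30), and Stars, another symbol of Abra, which had no probe. Srf, encoding serum response factor, had 2018 on the DHT array and 1981 on the vehicle array (0.30), Mef2c 4332 and 7010 (-0.49), Abra, which activates serum response factor signalling, 5497 and 8551 (-0.43), and Myf6 10671 and 17039 (-0.51). The strain targets outside the sarcomere were mostly lower. Of 13 symbols listed, 9 were detected, with a median of -0.32, 4 at least 1.5-fold lower and 1 higher, against 15.8% and 13.4% of all genes. Among the 13 were Ctgf and Cyr61, older symbols of Ccn2 and Ccn1, which had no probe. The matricellular genes Ccn1 (301 on the DHT array, 538 on the vehicle array, 1.89-fold lower) and Ccn2 (4409 and 8291, 1.66-fold lower), the immediate early gene Fos (842 and 1624, 1.72-fold lower) and Fhl2, which is in both lists, made up the lower genes. Without background correction these folds were 1.53 for Ccn1, 1.64 for Ccn2, 1.62 for Fos and 1.82 for Fhl2. Tagln (217 and 197) was 1.62-fold higher, which without background correction was 1.20-fold. These targets are also made by fibroblasts and vessels, whose markers are given above, and their part in these values was not tested.

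**Figure D5:**
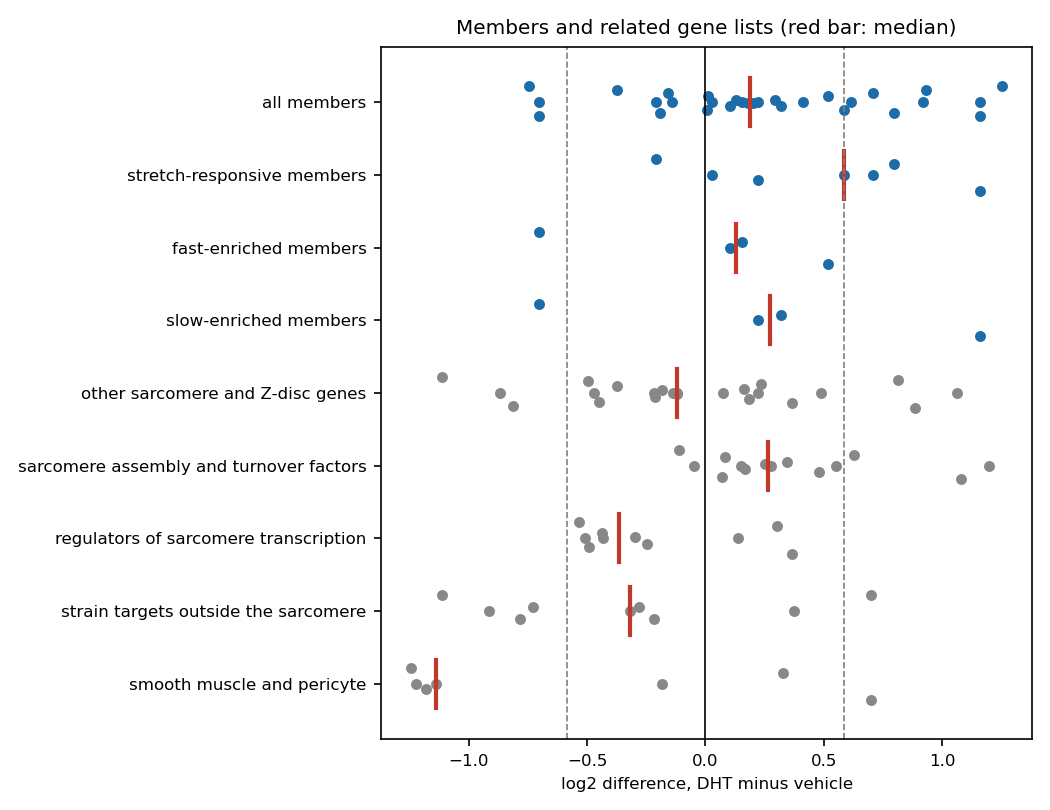
The log2 difference, DHT minus vehicle, of the 30 detected sarcomere genes, of subsets of them (blue) and of related lists (grey), with the median of each list as a red bar and 1.5-fold as dashed lines. The stretch-responsive genes, which include the 3 ankyrin repeat genes, have a median of 0.59, and the assembly factors one of 0.26. The transcription regulators (-0.37), the strain targets outside the sarcomere (-0.32) and the smooth muscle and pericyte markers (-1.14) have medians to the left of 0.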

How the data were processed

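The labels describe 2 samples, 1 array each, of biotin-labelled cRNA from total RNA extracted with Trizol. Per the submitters' processing notes, GenomeStudio 2011.1 was used. What it did, and on which genome build, is not given in the sources used here. The deposited signal intensity is a linear probe brightness, neither normalized nor background-subtracted, and each deposited detection p-value was taken to belong to the signal column before it, where it never rose with the signal over 25697 probes (0 steps). The authors' deposited log2 values matched a quantile normalization of the log2 signals to within 0.00065405.

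Probes were named through the platform annotation, which gave 23978 of 25697 probes a single symbol. Background was corrected with an offset of 16 and values quantile normalized by neqc of limma 3.58.1 under R 4.3.3, inferring background from the detection p-values, a procedure tested on simulated data. A gene took its detected probe with the highest mean. A gene detected on 1 array has only a bound, against the lowest detected value of the other array or its own, whichever was higher. The alternatives were other background corrections, scalings, detection limits, probe choices and limits on bright probes, 12 in all.

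The genes, their grouping by position and the other lists were chosen with earlier results of these data known. By rule, all 39 genes were named, and genes of other lists past 1.5-fold. The number of arrays limits the precision, and p-values were not computed. Protein sequences were not used here. Tables and plots used Python 3.11.15, pandas 2.3.3 and matplotlib 3.10.9.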

Additional observations from a re-analysis of the deposited data

How the results depend on the processing

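Of 120 values recomputed for the counts, the median of all genes of the set and the group medians, 113 stayed within 1.5 times for counts or within the probe-to-probe SD of 0.28 for medians. The number of genes at least 1.5-fold higher was 5 without normalization between arrays, a setting that moved the median of all 8815 genes to -0.28, where the sarcomere genes had 0.03. The number higher was 7 without background correction and in the deposited log2 values, where Ankrd23 and Myom2 fell under 1.5-fold. The number lower was 1 without background correction, with an offset of 50, in the deposited log2 values and among genes detected on both arrays, since the dim Lmod2 and Myoz3 then no longer counted. The thin filament median was 0.30 with median scaling, and the ankyrin repeat median 0.48 without normalization between arrays. Of 351 values of single genes, 330 moved by less than that SD and 21 by more, and 0 of the 12 genes past 1.5-fold by their fitted values changed sign. Ankrd2, Synpo2 and Pdlim1 were past 1.5-fold in all 12 alternatives. Another 8 genes, all under 1.5-fold, changed sign in some alternative: Acta1, Actc1, Csrp3, Fhl1, Mybpc1, Myom1, Ttn and Xirp1. With the dimmest detected probe in place of the brightest, Pdlim5 was at 0.19, Ldb3 at 0.40 and Actn3 at 0.97. No paired analysis was possible because each group had 1 array, and no replicate could be left out. Signal over background limits the folds of the dim genes Lmod2, Myoz3, Myom2, Synpo2 and Ankrd1. Saturation limits those of Acta1, Actc1, Actn3, Mybpc2 and Fhl1 on both arrays, and those of Tmod4 and Ttn on 1 array.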
